A study of Sus scrofa with 36 samples.

Results

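The muscle ankyrin repeat proteins are a family of 3 stress-responsive proteins, encoded by ANKRD2 (ankyrin repeat domain 2, also called ARPP), ANKRD1 (also called CARP, the cardiac ankyrin repeat protein) and ANKRD23 (also called DARP). They were followed here in the adrenal glands of pigs kept at thermoneutrality (TN) or exposed to heat stress (HS). The members were all probes of these 3 genes on a porcine Agilent array, found by gene name, by RefSeq transcript or by an older symbol. The 3 genes, of 11787 named genes with a probe, came to 7 of the 60305 probes, and 5 of the 7 were among the 45943 probes bright enough to be tested. ANKRD2 was chosen on its measured HS minus TN difference in these same arrays, so that difference is given for the family as a description with no test.

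In striated muscle the family binds the N2A region of titin, the giant elastic protein of the sarcomere, and its members also enter the nucleus, where they act as cofactors of transcription. ANKRD2 is best known from slow skeletal muscle fibres and is induced by stretch and by denervation. ANKRD1 is the cardiac form, and it is also a well known target of the YAP and TAZ coactivators outside muscle, whereas ANKRD23 was described in heart and skeletal muscle and has been tied to energy metabolism. Neither the cortex nor the medulla of the adrenal gland contains striated muscle.

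The 36 pigs were castrated males of the Large White (LW) and Creole (CR) breeds and of the Large White x Creole cross (F1), with 6 pigs in each of the 6 breed by temperature groups. They entered the climatic room at 11 weeks of age. The 18 TN pigs were killed while the room was still at 24 °C. The 18 HS pigs were killed once they had spent 4 or 5 days in the heat, at 32 °C by the design, while the sample labels give 30 °C for the same group. The day of slaughter therefore differs between TN and HS and cannot be told apart from temperature. Pen, litter and parents could not be modelled, so p-values measure the spread between these pigs. By the paper, each breed came in blocks of littermates and was penned by breed. The fits treat all pigs as independent, so SEs and p-values, above all those of breed, may be too small. In a ground piece of gland, fewer cells of a type and less RNA per cell cannot be told apart.

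Between 42436 and 48060 probes were well above background on the TN arrays and between 43585 and 47657 on the HS arrays, and array pairs correlated at 0.982 to 0.996 over the tested probes. The arrays lay on 5 slides, each holding both temperature groups. The number of arrays limits the precision. Replicate 3 of the F1 HS group stood apart in skeletal muscle markers, and 2 HS pigs lay near the TN pigs. Over the 407 probes called by temperature, 43.5% of the values of Large White HS replicate 5 and 48.2% of those of Creole HS replicate 6 were on the HS side of the midpoint between the group means, against 70.3% to 93.6% in the other HS pigs and 5.41% to 45.9% in the TN pigs.

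The probes that carry the results are shown because they differ in what they can report. Each probe is 60 bases long. The first ANKRD2 probe is given from base 25 to base 54, and the capitals mark AATAAA, the canonical polyadenylation signal, which starts at base 35 of the probe. The second ANKRD2 probe and the ANKRD23 probe are given whole, and the ANKRD1 probes by their first 30 bases.
ANKRD2 A_72_P404558: aagctaccgcAATAAAaaagtctttttctt
ANKRD2 O12718: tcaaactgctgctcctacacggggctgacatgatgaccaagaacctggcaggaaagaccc
ANKRD1 A_72_P232732: atgaaagtgactctgtgagaaggacaagca
ANKRD1 A_72_P366633: cttgccatttagtgtctagggactagggat
ANKRD23 O3046: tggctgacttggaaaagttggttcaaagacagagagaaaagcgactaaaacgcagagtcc
AATAAA was found in 1 of the 7 member probes on the printed strand and in 6185 of all 60305 probes, or 10.3%. No 2 member probes shared a run of more than 9 bases, and the longest run shared by both ANKRD2 probes was 6 bases. In RefSeq on Sscrofa11.1, ANKRD1 lies at chr14:102603777-102612857 and ANKRD23 at chr3:56776824-56781223. The array files name the ANKRD1 probes by the older symbol CARP.

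ANKRD2 was well above background in every gland and was higher in HS than in TN pigs of all 3 breeds. All levels below are log2 values of quantile-normalized intensity, and levels of different probes are not compared. With probe A_72_P404558, Creole TN pigs ran from 7.44 to 9.79 with a median of 9.01, and Creole HS pigs from 9.04 to 9.997 with a median of 9.19. Large White pigs ran from 8.39 to 9.26 with a median of 8.80 under TN, and from 8.78 to 10.23 with a median of 9.75 under HS. F1 pigs ran from 8.49 to 9.84 with a median of 9.48 under TN, and from 9.65 to 10.55 with a median of 10.01 under HS. In each breed the temperature groups overlapped, and the Creole TN group was the widest because 2 of its pigs lay well below the rest.

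The mean of A_72_P404558 was 8.99 ± 0.66 (SD, n = 18) in TN and 9.69 ± 0.46 (SD, n = 18) in HS pigs, a difference of 0.69 on the log2 scale (SE 0.17), or 1.62-fold. It was the largest difference among the 179 probes that were higher in HS at an FDR of 0.05, which were 0.390% of the probes tested, and the second ANKRD2 probe was rank 4. Beside them in that order stood 5 probes with no gene name, with differences of 0.69 and 0.62 for ranks 2 and 3 and of 0.55, 0.55 and 0.53 for ranks 5 to 7. These values chose the gene and are not a test of it. Of the 18 HS pigs, 17 lay above the TN mean of their own breed, and 6 lay above every TN pig.

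Probe O12718, from another stretch of the ANKRD2 transcript, gave a difference of 0.62 (SE 0.15), or 1.54-fold, between TN pigs at 8.28 ± 0.59 (SD, n = 18) and HS pigs at 8.90 ± 0.44 (SD, n = 18). With this probe all 18 HS pigs lay above the TN mean of their breed, and 7 lay above every TN pig. Once the mean of each group was taken off, both ANKRD2 probes moved together over the 36 arrays, with a Pearson correlation of 0.974 and a Spearman correlation of 0.962, so pigs that were high with the first probe were high with the second. Both probes were read on the same arrays and share any property of the RNA sample.

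**Figure D1:**
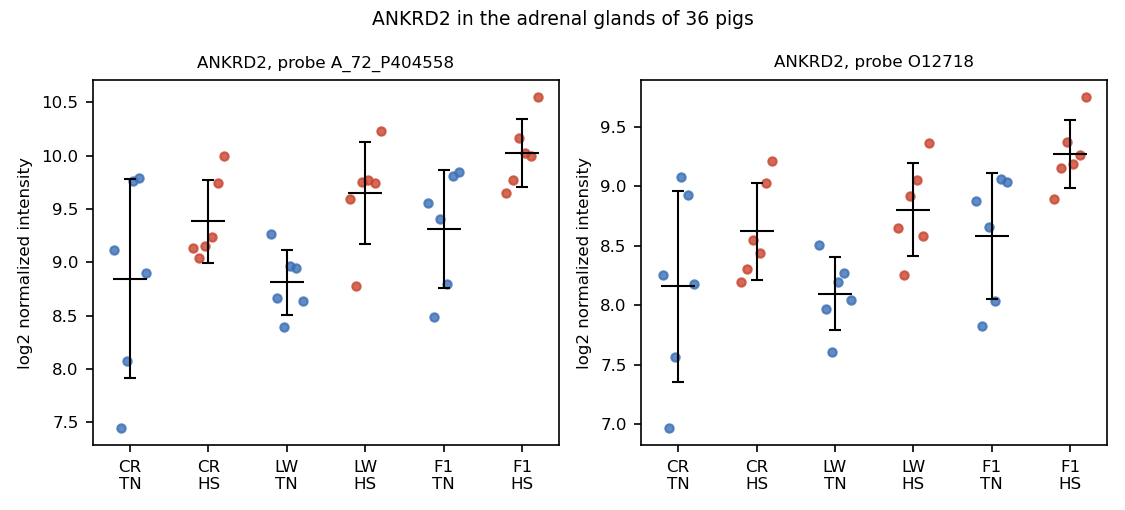
Log2 normalized intensity of ANKRD2 by breed and temperature group for probe A_72_P404558 (left) and probe O12718 (right). Each point is 1 pig (6 a group; TN blue, HS red), and the black bars are the mean and SD. The HS group lies higher than the TN group in each breed and all groups next to each other overlap, with the 2 lowest pigs in Creole TN.

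By breed, the difference of A_72_P404558 was 0.54 (SE 0.41) in Creole, 0.84 (SE 0.23) in Large White and 0.71 (SE 0.26) in F1 pigs. For O12718 it was 0.46 (SE 0.37), 0.71 (SE 0.20) and 0.69 (SE 0.24). The breeds differed in this by less than the SE of the Creole value. The test of that difference, the breed by temperature interaction, is separate from the contrast that chose ANKRD2. By limma with Benjamini-Hochberg adjustment, it gave an adjusted p of 0.988 for both probes (unadjusted 0.780 and 0.776). The same test called 0 of the 45943 probes (0%), with 1932 at an unadjusted p under 0.05 and a lowest adjusted p of 0.555.

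The difference was positive on every slide. The slides split the same values that chose ANKRD2, so these signs are a description and not a test. Within slides 1 to 5 the HS minus TN difference of A_72_P404558 was 0.43, 1.01, 0.60, 0.45 and 0.84, and that of O12718 was 0.31, 0.95, 0.56, 0.36 and 0.76. With slide as a block it was 0.69 for the first probe. Without Large White HS replicate 5 it was 0.68. Without Creole HS replicate 6 it was 0.66, and that pig held the highest ANKRD2 level of its group at 9.997.

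**Figure D2:**
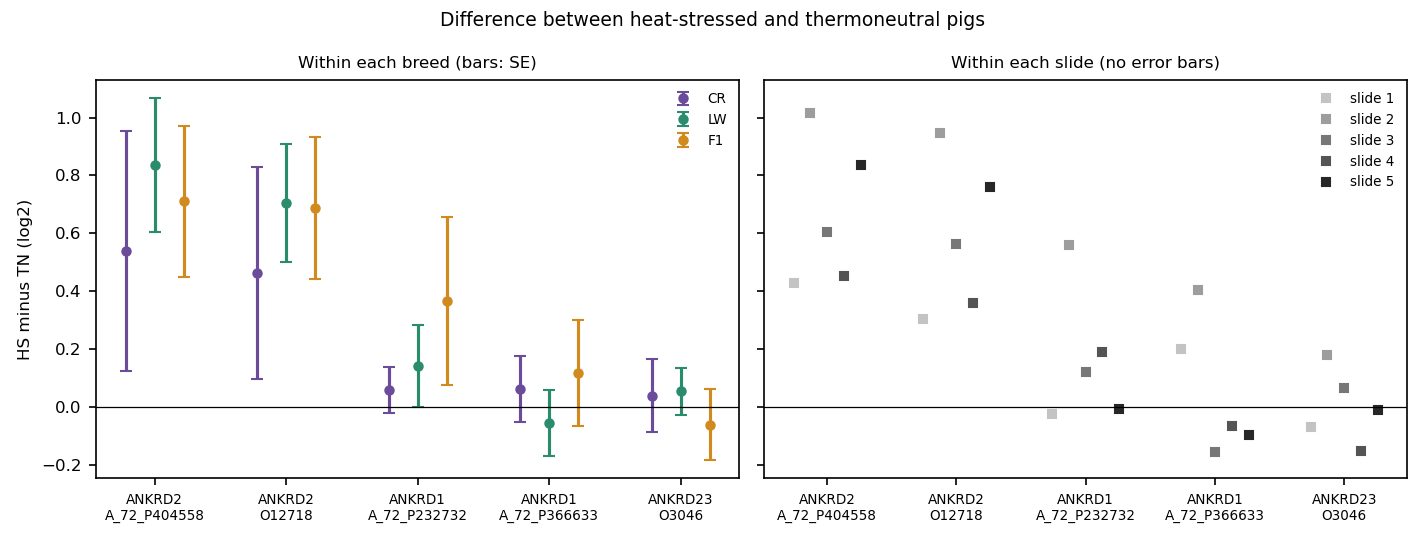
HS minus TN difference on the log2 scale for the 5 tested probes, within each breed (left, points with SE, 6 against 6 pigs) and within each slide (right, no error bars, 2 against 2 pigs on slide 1 and 4 against 4 on the others). Both ANKRD2 probes lie above 0 in every breed and on every slide, from 0.31 to 1.01 over slides, whereas ANKRD1 A_72_P366633 and ANKRD23 O3046 have values on both sides of 0. ANKRD1 A_72_P232732 lies above 0 in each breed (0.06 to 0.37) and, over slides, runs from -0.02 on slide 1 to 0.56 on slide 2. ANKRD2 was chosen on this difference, so its signs are not a test.

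Ordered by mean level of A_72_P404558, the groups ran from F1 HS at 10.03 ± 0.32 through Large White HS at 9.65 ± 0.48, Creole HS at 9.38 ± 0.39, F1 TN at 9.32 ± 0.55 and Creole TN at 8.85 ± 0.94 to Large White TN at 8.81 ± 0.31 (SD, n = 6 each). No neighbours in this order were separate. Their differences were 0.38, 0.26, 0.07, 0.47 and 0.04, each smaller than the SD of at least 1 of the groups compared, and their ranges overlapped. O12718 gave the same order.

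Breed was not used to choose the family, so it was tested. ANKRD2 averaged 9.12 ± 0.74 in Creole, 9.23 ± 0.58 in Large White and 9.67 ± 0.57 in F1 pigs (SD, n = 12) with A_72_P404558. The F1 pigs were highest at both temperatures, but the spread within breeds was wide. In the limma F test over breeds with Benjamini-Hochberg adjustment, no ANKRD2 probe passed at 0.05, against 10.4% of all probes tested. The adjusted p was 0.139 (unadjusted 0.0266) for A_72_P404558 and 0.0860 (unadjusted 0.0122) for O12718. For O12718 it fell below 0.05 when any of 3 pigs was left out, to 0.0346 without Creole TN replicate 4, 0.0454 without Creole TN replicate 5 and 0.0412 without F1 TN replicate 2.

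The difference between Large White and Creole pigs in ANKRD2 was 0.11 (SE 0.21) for A_72_P404558 and 0.06 (SE 0.19) for O12718, with limma adjusted p of 0.807 and 0.890, where 11.3% of all probes passed. Without Creole TN replicate 2, the lowest pig of all, the difference was -0.01 and -0.04, and without the arrays of slide 2, which holds that pig, it was -0.0013 and -0.03. For O12718 it was also -0.01 without slide 1. The cross stood 0.50 (SE 0.18) above the mean of its parental breeds with A_72_P404558 and 0.51 (SE 0.16) above it with O12718, about 1.41-fold and 1.42-fold. The limma adjusted p of the cross was 0.244 (unadjusted 0.00853) and 0.167 (unadjusted 0.00334), and 0.409% of all probes passed. The cross was 0.49 (SE 0.30) above the parental mean under TN and 0.51 (SE 0.18) under HS with A_72_P404558, so the excess was of like size at both temperatures, and it did not hold up against the number of probes tested.

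ANKRD1 was measured by 4 probes, of which A_72_P232732 was well above background on all 36 arrays and A_72_P366633 on 26. The other 2, A_72_P003736 and A_72_P596044, were above background on 7 and 1 arrays and were not tested. Their group means stayed between 5.39 and 5.51 and between 4.93 and 5.09.

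With A_72_P232732, TN pigs ran from 6.39 to 7.34 with a median of 6.79, and HS pigs from 6.59 to 8.53 with a median of 6.95. The HS minus TN difference was 0.19 (SE 0.11). By breed it was 0.06 in Creole, 0.14 in Large White and 0.37 in F1 pigs. In F1 HS pigs, 5 of the 6 lay between 6.59 and 7.09 and 1, replicate 3, was at 8.53, the highest ANKRD1 level of all 36 pigs. Without that pig the difference fell to 0.10, and the F1 HS group averaged 6.87 ± 0.18 (SD, n = 5) in place of 7.15 ± 0.70 (SD, n = 6).

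The same pig was highest with A_72_P366633, at 6.67 against at most 6.12 in the other 35 pigs. Over all pigs this probe differed by 0.04 (SE 0.08) between HS and TN, and by -0.01 (SE 0.06) without that pig. Neither ANKRD1 probe passed the breed F test by limma with Benjamini-Hochberg adjustment, with adjusted p of 0.772 and 0.346 (unadjusted 0.560 and 0.124). Large White minus Creole was 0.00 (SE 0.13) and -0.15 (SE 0.10), adjusted p 0.992 and 0.365. The cross stood 0.12 (SE 0.11) and 0.12 (SE 0.08) above its parents, adjusted p 0.762 and 0.652, and without F1 HS replicate 3 these values were -0.02 and 0.05. The interaction gave adjusted p of 0.982 and 0.984.

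ANKRD23 had 1 probe, O3046, well above background on all arrays. TN pigs ran from 5.86 to 6.89 with a median of 6.29, and HS pigs from 6.002 to 6.55 with a median of 6.35, so the HS range lay inside the TN range. The difference was 0.01 (SE 0.06), and by breed it was 0.04 in Creole, 0.05 in Large White and -0.06 in F1 pigs. By limma with Benjamini-Hochberg adjustment, breed (0.709), Large White minus Creole (0.915), the cross (0.724) and the interaction (0.985) all missed the threshold. The likeness of ANKRD2 to its relatives across pigs differed by probe. With group means taken off, A_72_P404558 correlated at -0.12 with ANKRD1 A_72_P232732 and at 0.13 with ANKRD23 over the 36 arrays (Spearman -0.30 and 0.14). With the dimmer ANKRD1 probe A_72_P366633 it correlated at 0.325, and O12718 at 0.334. Without F1 HS replicate 3 these last values were 0.371 and 0.389, and the correlation of A_72_P404558 was -0.292 with A_72_P232732 and 0.124 with ANKRD23.

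**Figure D3:**
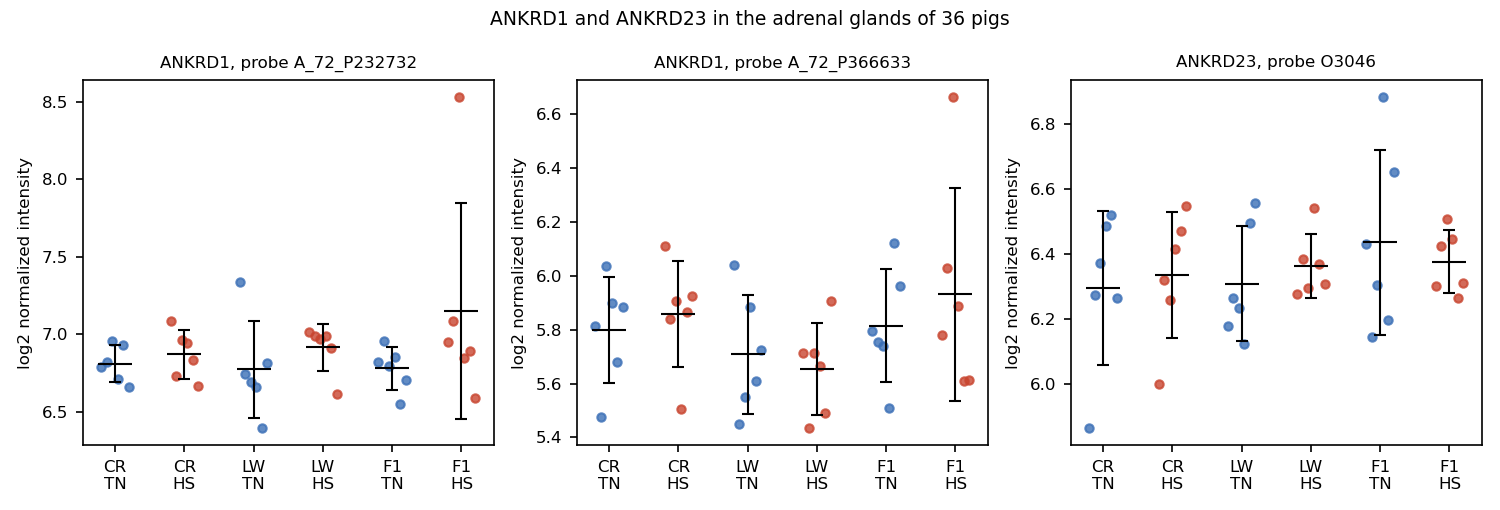
Log2 normalized intensity of ANKRD1 (probes A_72_P232732 and A_72_P366633) and ANKRD23 (probe O3046) by breed and temperature group. Each point is 1 pig (6 a group; TN blue, HS red), and the black bars are the mean and SD. F1 HS replicate 3 lies far above the other pigs of its group in both ANKRD1 panels, at 8.53 and 6.67, and the ANKRD23 groups lie on top of each other.

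Because the family belongs to striated muscle, the glands were examined for muscle transcripts. Of 27 skeletal muscle markers, 25 had a probe and 22 were tested, against 10308 tested of all 11787 named genes with a probe. Of the 25, 19 were above background on all arrays, among them ACTA1 (skeletal actin) and CKM (muscle creatine kinase). The markers were thus bright enough to be tested about as often as genes at large, and detection alone does not show muscle tissue. MYBPC2 (fast myosin binding protein C) was above background on no array. The fast myosin light chain MYL1 was above background on 8 arrays, and slow MYBPC1 on 11.

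F1 HS replicate 3 was the highest of the 36 pigs in 15 of the 25 muscle genes and exceeded the next pig by over 1 log2 unit in 9 of them. Slow troponin T (TNNT1) was 11.65 in this gland and at most 7.09 in the other 35. Slow myosin heavy chain (MYH7) was 12.60 against at most 8.47, and slow troponin C (TNNC1) 11.18 against at most 6.84. Fast-fibre MYLPF (11.43 against 8.88) and MYL1 (9.33 against 5.99) were high as well, whereas TNNI1, MYH1 and ACTA1 were within the range of the other pigs. The summed intensity of the 5 slow-fibre genes was 12351 in this gland, while the other HS pigs ran from 734 to 1174 and the TN pigs from 744 to 1085.

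**Figure D4:**
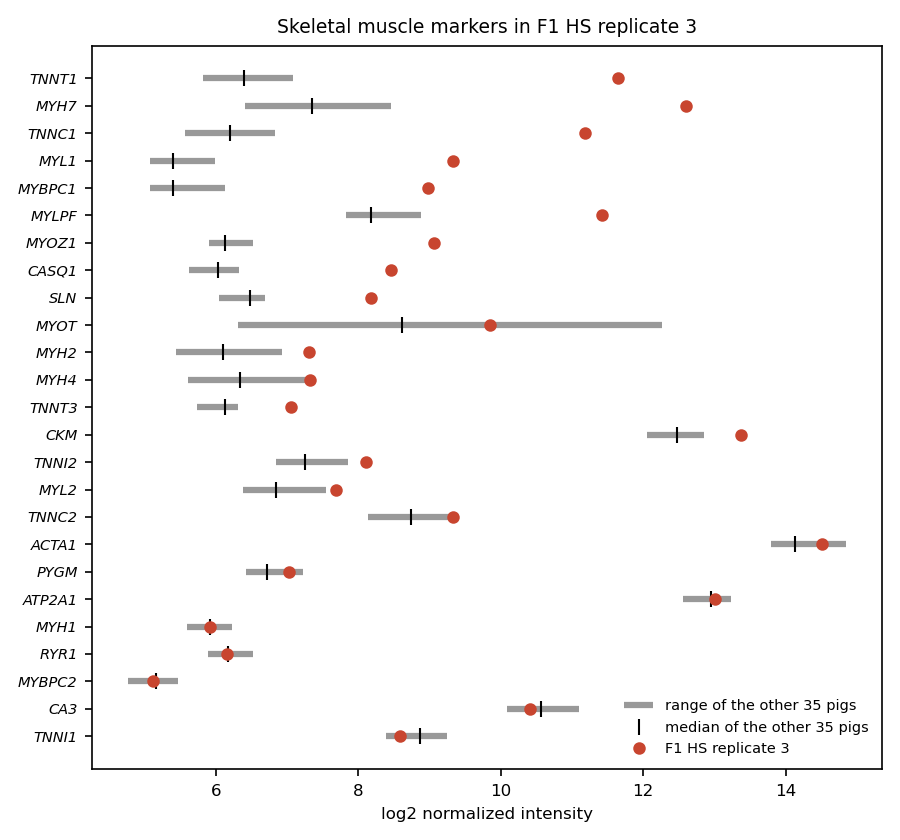
Log2 normalized intensity of the 25 skeletal muscle markers with a probe in F1 HS replicate 3 (red point) and in the other 35 pigs (grey bar, range; black tick, median). The red point lies beyond the grey bar for 15 genes, by over 4 log2 units for TNNT1, MYH7 and TNNC1, and inside it for TNNI1, MYH1 and ACTA1 among others.

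ANKRD1 was high in the gland in which these genes were high, and ANKRD2 there lay within its group. Among the 36 pigs that gland was rank 3 in ANKRD2 with A_72_P404558 and rank 2 with O12718. The 5 named genes whose pattern was most like that of ANKRD1 over the 36 arrays, out of 10306 and with group means taken off, were TNNT1 (r = 0.816), SLN (0.806), MYOZ1 (0.804), MYLPF (0.791) and TNNC1 (0.783). All 5 encode skeletal muscle proteins: troponins, sarcolipin, a Z-disc protein and a myosin light chain. The likeness rested on that gland. Over the other 35 arrays the same genes correlated with ANKRD1 at 0.112, 0.304, 0.0481, 0.105 and -0.0227, and the 5 most alike were then ACSS2 (0.714), PIGB (0.662), ELOVL6 (0.644), CYP51 (0.641) and NBR1 (0.639). ACSS2, ELOVL6 and CYP51 are enzymes of acetyl-CoA, fatty acid and cholesterol synthesis. All these correlations are those of probe A_72_P232732. It correlated with the ANKRD1 probe A_72_P366633 at 0.558 over 36 arrays and at 0.127 over 35. The likeness over 35 arrays therefore describes 1 probe and not the gene.

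ANKRD2 correlated at 0.017 with the mean of the 22 tested muscle markers over 36 arrays and at -0.109 over 35, where ANKRD1 A_72_P232732 gave 0.836 and 0.245 and A_72_P366633 gave 0.508 and -0.307. With the mean of the 9 tested titin and Z-disc genes, the muscle partners of the family, ANKRD2 correlated at 0.292 over 36 arrays and 0.407 over 35, and O12718 at 0.334 and 0.486. ANKRD1 A_72_P232732 gave 0.586 and -0.187 with that list. In F1 HS replicate 3, ANKRD2 stood at 10.16 with A_72_P404558, inside the 9.65 to 10.55 of the other 5 pigs of its group. The HS minus TN difference of ANKRD2 without this pig was 0.69, as large as with it. The named genes most like ANKRD2 were TMEM216 (0.710), NEK3 (0.707), CRB3 (0.680), SERPINH1 (0.673) and PBX3 (0.672), of which TMEM216 is a protein of the primary cilium, CRB3 an epithelial polarity protein and SERPINH1 a collagen chaperone. None of these 5 passed the heat test by limma (adjusted p 0.160 to 0.988). For ANKRD23 they were ACOT13 (0.731), UST (0.696), SPC25 (0.669), R1C1 (0.662) and ZNRF2 (0.646).

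**Figure D5:**
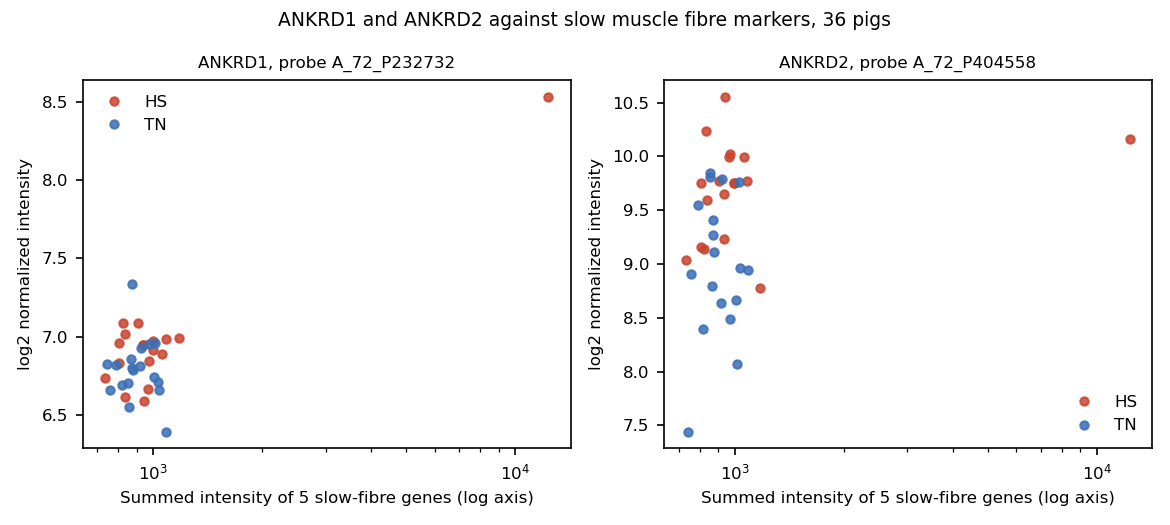
Log2 normalized intensity of ANKRD1 (probe A_72_P232732, left) and ANKRD2 (probe A_72_P404558, right) against the summed intensity of 5 slow-fibre genes on a log axis, each point 1 of 36 pigs (TN blue, HS red). F1 HS replicate 3, at a sum of 12351, has the highest ANKRD1 level (8.53) while its ANKRD2 level (10.16) lies within those of the other HS pigs.

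Few muscle markers passed the heat test. Of the 22 tested skeletal muscle genes, 1 rose in HS and none fell by limma with Benjamini-Hochberg adjustment over all probes, where 0.310% of named genes rose and 0.660% fell. Their median difference was 0.09 on the log2 scale against -0.01 over all 10308 named genes. Of the 22, 19 lay above 0, against 4830 of the 10308. Both muscle values rested on F1 HS replicate 3, without which the median was 0.03 and 12 of the 22 lay above 0. The gene that rose was MYH2, the fast 2A myosin heavy chain, at 5.44 to 6.40 in TN pigs (median 5.96) and 5.71 to 7.31 in HS pigs (median 6.54), a difference of 0.47 (SE 0.12, adjusted p = 0.0408). The groups overlapped, and F1 HS replicate 3 was the highest pig. Without it the difference of MYH2 was 0.41 (SE 0.10, adjusted p = 0.0530 by limma), and no skeletal muscle gene passed. The call of MYH2 was also lost in other cases, and 19 of the 36 fits that left out 1 pig called no gene of any list higher in HS. MYH4, another fast myosin heavy chain, passed beside MYH2 without Creole HS replicate 6 and also without the arrays of slide 5. Myosin heavy chain genes are close copies whose probes may share signal. The summed intensity of the muscle list was 32370 to 42880 in TN pigs and 33460 to 63643 in HS pigs, or 33460 to 48328 without F1 HS replicate 3. The part of muscle tissue in the levels of ANKRD1 and ANKRD2 was not tested.

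None of the lists of partners held a gene that passed the heat test. Of 9 tested genes of the titin and Z-disc list, none passed by limma and 1 at an unadjusted p under 0.05, and their median difference was 0.04, with 7 of 9 above 0. Without F1 HS replicate 3 the median was 0.01 and 5 of 9 lay above 0. TTN itself, which encodes titin, differed by 0.39 (SE 0.10, adjusted p = 0.0608), with TN pigs at 8.71 ± 0.27 and HS pigs at 9.09 ± 0.38 (SD, n = 18). It passed with slide as a block or without slide 1, and when Creole HS replicate 1 or 6 or Large White HS replicate 5 was left out. CSRP3 and MYPN, Z-disc partners, were above background on 6 arrays each and were not tested.

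Of the 14 tested nuclear partners and regulators, which include YBX1, the NF-kB subunits and the myogenic factors, none passed the heat test by limma (2 at an unadjusted p under 0.05) and 1 passed the breed test. This was YBX1, a cold-shock domain protein that binds ANKRD1, with Large White 0.15 below Creole (adjusted p = 0.0449, where 10.6% of named genes passed). Of 13 tested genes of the YAP and TAZ list, none passed the heat test by limma (2 at an unadjusted p under 0.05), although YAP1 passed without Creole HS replicate 6. LATS2, a kinase that inhibits YAP, passed the breed test with Large White 0.21 below Creole (adjusted p = 0.00763). CCN2, a well known YAP target, differed by -0.22 (SE 0.11, adjusted p = 0.396) between HS and TN. Of the other genes whose symbol starts with ANKRD, 22 had a probe and 15 were tested. None passed the heat test (3 at an unadjusted p under 0.05) or the breed test (1 at an unadjusted p under 0.05) by limma, with HS minus TN differences from -0.26 (ANKRD9) to 0.24 (ANKRD28). ANKRD28 passed the heat test when Large White HS replicate 5 was left out.

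Markers of other cells were read beside ANKRD2. All 6 tested cortex genes and all 4 tested chromaffin genes were above background on every array, as the tissue label requires. In the cortex list NR5A1, the master regulator of steroidogenic cells, fell by 0.25 in HS (SE 0.06, adjusted p = 0.0254 by limma), from 12.46 ± 0.18 to 12.22 ± 0.16 (SD, n = 18). This call was lost when any slide was left out. No other gene of these lists passed the heat test, although PNMT, the adrenaline-forming enzyme of chromaffin cells, passed when Creole TN replicate 6, Creole HS replicate 6 or Large White HS replicate 2 was left out. All 6 cortex genes and all 4 chromaffin genes lay below 0 in HS minus TN, against 5478 of all 10308 named genes. The medians of these lists were -0.07 and -0.17 on the log2 scale, against -0.01 over all named genes. PNMT differed by -0.35 (SE 0.10, adjusted p = 0.0797 by limma). The part of these cells in the ANKRD2 difference was not tested. None of the heart muscle genes (3 tested) and smooth muscle genes (7 tested) passed it, nor did the fat cell genes (6 tested) or the red blood cell genes (2 tested), with 1 of these 18 at an unadjusted p under 0.05 by limma. That gene was HBB, a globin of red blood cells, at -0.67 (SE 0.29, adjusted p = 0.273 by limma). Of the 5 heart muscle genes with a probe, TNNI3, ACTC1 and NPPA were above background on all 36 arrays, and NPPB and TNNT2 on 11 and 2 arrays.

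With group means taken off, A_72_P404558 correlated at 0.332 with the heart list, 0.283 with the smooth muscle list, 0.279 with the red cell list, 0.243 with the fat cell list, -0.0764 with the cortex list and -0.275 with the chromaffin list over 36 arrays. It correlated at -0.111 with the median raw intensity of the array. Of the 6 fat cell genes, 4 passed the breed test by limma, against 10.6% of all named genes, and they did not share a direction. ADIPOQ (adiponectin) was 9.71 ± 0.55 in Creole, 8.09 ± 0.38 in Large White and 9.33 ± 0.69 in F1 pigs (SD, n = 12; limma adjusted p of the breed F test 8.18e-06). FABP4, the fatty acid binding protein of fat cells (Large White minus Creole -1.33, SE 0.18), and PLIN1, which coats lipid droplets (-0.90, SE 0.14), went the same way, while LPL (lipoprotein lipase) was 0.91 higher in Large White (SE 0.17). The part of fat cells in any breed value was not tested.

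Of the 44 tested genes of the other marker lists, 5 (11.4%) passed the breed test by limma, a share near the 10.6% of all named genes. The smooth muscle genes ACTA2 and SMTN were 0.34 (SE 0.12, adjusted p of the F test 0.0405) and 0.24 (SE 0.07, adjusted p 0.0388) higher in Large White than in Creole pigs. The chromaffin granins CHGA and CHGB were 0.16 (SE 0.05, adjusted p 0.0420) and 0.53 (SE 0.09, adjusted p 0.000442) higher in Large White, and the cholesterol transporter STAR of the cortex was lower there (Large White minus Creole -0.34, SE 0.08, adjusted p 0.00576).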

How the data were processed

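Total RNA from ground adrenal tissue was labelled with Cy3, and each of 36 pigs was hybridised to 1 array of a 1-colour Agilent porcine design. The submitters' notes name Agilent Feature Extraction 10.10.1.1 and limma. The deposited scanner files hold spot intensity that has not been normalized between arrays. Median pixel intensity without background subtraction was quantile-normalized over the non-control spots, spots marked as outliers were left out, values were taken to log2 and spots of a probe averaged. The authors' deposited table of quantile-normalized log2 values, with column medians of 8.525 to 8.529, holds 5 of the 7 member probes and was an alternative. The chosen values differed from it by a median of 0.0065 and at most 0.029 on the log2 scale for these probes. Scale and centring of that table were checked against the scanner values in this way, and its values carry no sign that could be turned.

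A probe was tested if the scanner software marked it as well above background in 9 or more of the 18 TN or of the 18 HS pigs, which left 45943 probes. limma 3.58.1 in R 4.3.3 was run with breed and temperature as fixed effects, with Benjamini-Hochberg adjustment over all probes tested and a threshold of 0.05. The breed F test, Large White minus Creole, and the cross minus the parental mean came from this fit, and the interaction from a fit with 2 further terms. As a check of the code, the fit was run on simulated data with known changes. Those values were drawn independently for each pig and probe, so the check cannot speak to litters, pens, slaughter days or slides. The study's model also held the pen, the slaughter day and the sire and dam, none of which the labels give, so the fit leaves them out. A gene counted once in a list, by its brightest tested probe. Of the 60305 probes, 21837 were named by the gene name in the files, 2987 by RefSeq transcript and 195 by an older symbol, and the rest stayed unnamed.

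The text names all member probes, list genes past the threshold in the heat or breed test (at most the 5 largest a list), markers not above background, the 5 named genes most correlated with each member after group means were taken off, and the probes next to ANKRD2 in the order of rises. The other genes named were chosen after their values were seen. The members and lists were chosen with earlier results of these data known. Alternatives were the authors' table, normexp with an offset of 50, the processed signal minus its 75th percentile, a stricter and no filter, a block for slide, fits that dropped every slide or pig in turn, Creole HS replicate 6 left out and, added after the data were seen, F1 HS replicate 3 left out. Replicate numbers only name pigs and pair nothing.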

Additional observations from a re-analysis of the deposited data

Results flagged for a closer look

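In 42 sets of 6 pigs, 1 for each member probe and group, the lowest or highest pig was compared with the rest by Dixon's ratio, its gap to the nearest pig over the range of the group. The critical value for 6 samples is one that chance passes in about 1 in 20 sets. It was passed 3 times, each time by an ANKRD1 probe. F1 HS replicate 3 was high with A_72_P232732 (ratio 0.745, 8.53 against 7.09 for the next pig), and the same gland held the muscle transcripts described above. A Large White HS pig was low with the same probe (ratio 0.748, 6.62 against 6.91 for the next). A Large White TN pig was high with A_72_P596044 (ratio 0.671, 5.70 against 5.03), a probe above background on 1 array. No ANKRD2 or ANKRD23 pig stood apart in this way, and no cause was tested.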

How the results depend on the processing

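The HS minus TN difference of ANKRD2 with A_72_P404558 stayed positive, at 0.62 to 0.76 under the 13 alternatives and 0.61 to 0.76 when each pig was left out. Its breed F test (adjusted p 0.111 to 0.466; pigs left out, 0.0670 to 0.223), cross minus parental mean (0.38 to 0.61; pigs left out, 0.44 to 0.58) and interaction (adjusted p 0.940 to 1; pigs left out, 0.960 to 1.00) passed the threshold of 0.05 under none of them. Large White minus Creole turned to -0.0013 for A_72_P404558 without the arrays of slide 2, and ran from -0.013 to 0.21 when pigs were left out. For O12718 it turned to -0.014 without slide 1 and -0.027 without slide 2. For ANKRD1 A_72_P232732 it turned to -0.0086 with slide as a block, -0.047, -0.013 and -0.024 without slides 1, 2 and 5, and -0.022 without Creole HS replicate 6. For ANKRD23 it turned to -0.00048 with the 75th percentile scaling and -0.021 without slide 2. The cross minus the parental mean turned to -0.052 for A_72_P232732 and -0.010 for A_72_P366633 without slide 2, and to -0.016 for A_72_P232732 without F1 HS replicate 3. All of these breed values that turned lay within their SE of 0, and none of them passed the threshold. HS minus TN, which has no test, turned to -0.070 without slide 2 and -0.0072 without F1 HS replicate 3 for A_72_P366633, and to -0.036 without slide 2 and -0.0030 without Creole HS replicate 6 for ANKRD23.

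The count of list genes higher in HS, 1 as reported, became 0 with either other filter, without slide 2, 3 or 4 and without F1 HS replicate 3, 2 with slide as a block or without slide 1 or 5, and 4 without Creole HS replicate 6 (0 to 4 with pigs left out). The count lower in HS, also 1, became 0 without any of the 5 slides and 2 without Creole HS replicate 6 (1 to 2 with pigs left out). The cause was not tested, other than that a left-out slide or pig means fewer arrays. Under the filter on all 36 arrays, A_72_P366633 was not tested. No paired analysis was possible because replicate numbers do not come from the labels.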
